A study of Rattus norvegicus with 10 samples.

Results

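Pck1 and 4 further genes of renal glucose synthesis, Fbp1, Pc, Glud1 and Ppargc1a, were followed in whole kidneys of rats with and without water. Pck1 was taken as the gene on chromosome 3 from 171213936 to 171219871 (rat assembly Rnor_6.0), and the others by their Ensembl identifiers where the chromosome matched. All 5 were found among the 32623 genes of the count table, and all 5 passed the filter on low counts that left 15047 tested genes. Pck1 was picked because its level differed between the groups in these data, so its change is given as a description with no test. The other genes were picked by name as pathway members, with results of these data already known.

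The kidney is, beside the liver, an organ that makes glucose, and it does so in the proximal tubule, chiefly from lactate, glutamine and glycerol. Carbon of lactate passes through oxaloacetate, which pyruvate carboxylase (Pc) makes from pyruvate in mitochondria and which the cytosolic phosphoenolpyruvate carboxykinase (Pck1) turns into phosphoenolpyruvate. Carbon of glutamine reaches oxaloacetate through glutamate dehydrogenase (Glud1) and the citric acid cycle, while glycerol joins later, at the triose phosphates. Glud1 releases ammonium, so that glucose synthesis and acid excretion are linked in this tissue. Pck1 is a textbook case of an enzyme set mainly by the transcription of its gene, which cAMP and glucocorticoids raise and insulin lowers.

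The animals were male rats of the outbred Sprague-Dawley stock, and the labels do not state their age. The control group (5 rats) had free access to water, and the dehydrated group (5 rats) had none for 72 hours, which the design text calls 3 days of water restriction. Whole kidneys were dissected from each animal, powdered frozen, and 1 library of polyadenylated RNA was made per rat. The stated purpose was to find genes of osmoregulation. No allele, transgene or other agent is named for either group.

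Assigned fragments ranged from 29454213 to 35898689 per library. In both groups, replicate 6 has a library name with the other group's letter, while its title and treatment label agree, so results that rest on them are also given without them. The kidney could not be checked against cell type markers, because the reference table pairs none of the Ensembl identifiers with a symbol. For the same reason the 52 other pathway genes of the planned lists were not analysed here. The RefSeq table of assembly GRCr8 places all 5 symbols on the same chromosome as the count table does. The span of Pck1 is 5936 bp in the count table and 5950 bp in RefSeq, and Glud1 spans 33537 and 33647 bp. Ppargc1a spans 91290 bp in the counted annotation and 655711 bp in RefSeq, so exons that RefSeq places farther out were not counted for it.

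The sequences before the start of Pck1 and of Ppargc1a are shown because both hold the core of a cAMP response element, the site through which the CREB factors are known to act on these genes. Each is the 250 bases that precede the RefSeq start on the plus strand (GRCr8 chr3:182348322-182348571 and chr14:63634058-63634307), 5′ to 3′. Capitals mark every match to ACGTCA on either strand.
Pck1: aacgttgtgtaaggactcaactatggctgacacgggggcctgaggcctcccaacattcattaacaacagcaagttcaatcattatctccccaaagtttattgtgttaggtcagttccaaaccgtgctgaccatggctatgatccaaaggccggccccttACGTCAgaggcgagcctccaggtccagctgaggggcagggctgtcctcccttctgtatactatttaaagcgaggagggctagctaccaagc
Ppargc1a: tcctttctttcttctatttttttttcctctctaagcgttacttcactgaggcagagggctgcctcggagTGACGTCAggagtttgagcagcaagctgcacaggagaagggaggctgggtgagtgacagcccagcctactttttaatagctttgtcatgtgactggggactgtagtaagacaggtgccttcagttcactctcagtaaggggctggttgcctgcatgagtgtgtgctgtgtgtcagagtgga
In Pck1 the match lies 91 to 86 bases before the start. In Ppargc1a the 2 matches overlap and form the palindrome TGACGTCA, 181 to 174 bases before the start. Of 33469 RefSeq promoters of this length, 6.95% held ACGTCA on either strand and 1.59% held TGACGTCA. The windows of Fbp1 and Glud1 held no ACGTCA on either strand. The Fbp1 window lies on the plus strand of GRCr8, whereas the counted gene lies on the minus strand of Rnor_6.0. The 2 were matched by symbol only, and whether the window precedes the counted gene was not checked. Other sites were sought as exact letters on both strands. The TATA box letters TATAAA (in 12.9% of promoters), the forkhead core TGTTTAC (3.21%) and the C/EBP palindrome TTGCGCAA (0.14%) were found in none of the 4 windows. Nor were the full palindromic glucocorticoid element (0.012%) and the perfect nuclear receptor half-site repeat with a spacer of 1 base (0.0508%). Variants were not searched, such as the TATTTAAA near the end of the Pck1 window, so an absence concerns these letters only. CCAAT, present in 34% of promoters, was found once, in the window of Fbp1. Base composition differed among the 4. Glud1 had 78.8% G and C, a higher content than in 98.5% of promoters, and 45 CG pairs. Pck1 had 52% with 7 CG pairs, Ppargc1a 50.4% with 3 and Fbp1 61.2% with 5.

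Pck1 catalyses the committed step from oxaloacetate towards glucose (ENSRNOG00000028616, plus strand, 10 annotated exon ranges). Its levels in control kidneys were 1796, 2102, 1874, 2004 and 1963 CPM (counts per 1000000 fragments of the tested genes, with TMM scaling between libraries) in replicates 2, 3, 4, 5 and 6. In dehydrated kidneys they were 6100, 6483, 3838, 4722 and 8090 CPM in replicates 1, 2, 4, 5 and 6. Every dehydrated kidney lay above every control kidney, and the lowest of them, replicate 4, was at 1.97 times the control mean while the highest, replicate 6, was at 4.15 times. The group means were 1948 ± 118 and 5846 ± 1643 CPM (SD, n = 5). On the log2 scale the difference was 1.59 (SE 0.16), or 3.00-fold with a 95% interval of 2.37 to 3.81. Since Pck1 was chosen for this difference, the SE and the interval are a description and no test. Among all tested genes, the ranges of the groups did not overlap in 7.87%, and the dehydrated group lay wholly above the control group in 4.39%. With both libraries numbered 6 left out, the means were 1944 ± 136 and 5286 ± 1226 CPM (SD, n = 4), a 2.71-fold difference. In whole kidney, a change in the share of cells that express a gene and a change in RNA per cell cannot be told apart.

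The share of all assigned fragments that came from Pck1 was 0.194% ± 0.012 in control rats and 0.584% ± 0.15 in dehydrated rats (SD, n = 5). The gain of 3899 CPM was the largest of the 15047 tested genes, the next being 2195 CPM. By log2 fold change, 29 tested genes including Pck1 had at least its value. The plot of all tested genes shows Pck1 apart from the other genes of its level.

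**Figure D1:**
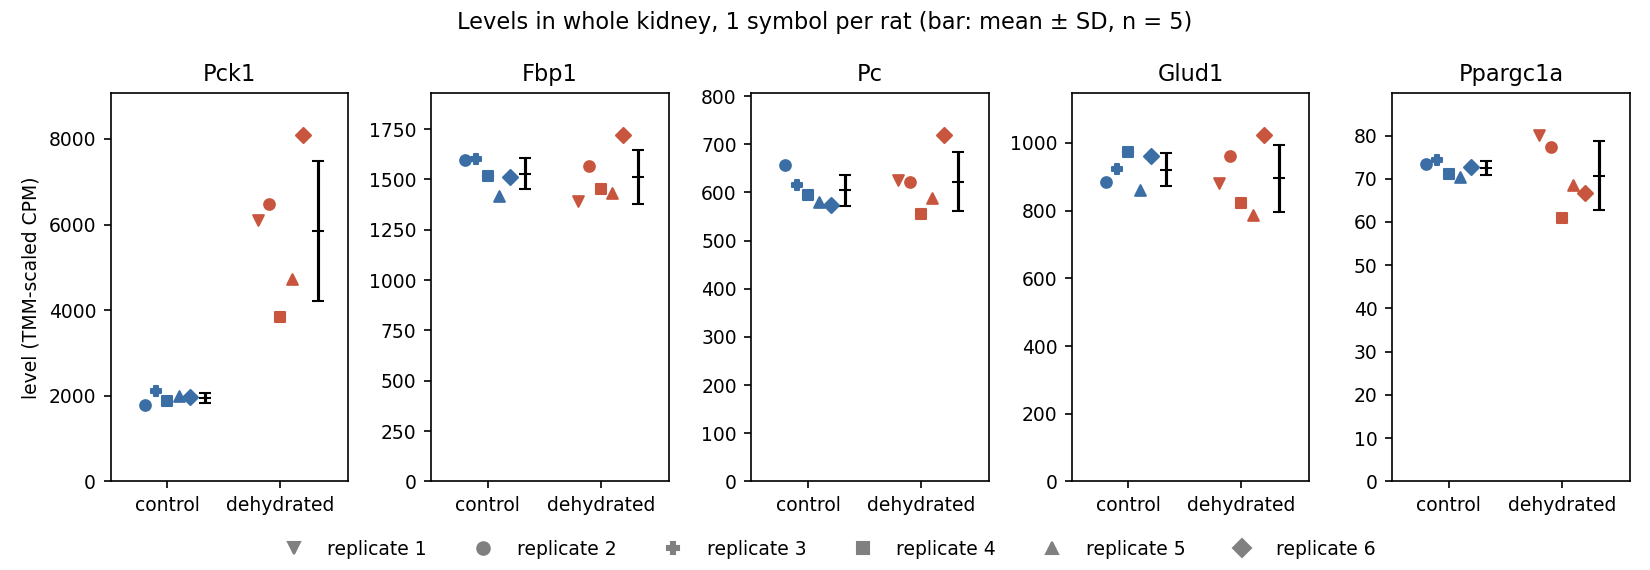
Level of each gene (TMM-scaled CPM, axis from 0) in every kidney, with 1 symbol per rat, its shape giving the replicate number, and the mean ± SD of 5 rats beside it. Pck1 ranged from 1796 to 2102 CPM in control and from 3838 to 8090 CPM in dehydrated kidneys, while the ranges of the other 4 genes overlapped between the groups.

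Fbp1, fructose bisphosphatase, acts near the end of the path (ENSRNOG00000017597, chromosome 17, 396180 to 417480, minus strand, 9 exon ranges). Its levels were 1598, 1601, 1516, 1418 and 1510 CPM in control replicates 2, 3, 4, 5 and 6, and 1391, 1566, 1450, 1433 and 1720 CPM in dehydrated replicates 1, 2, 4, 5 and 6. Of the dehydrated kidneys, 3 lay within the control range, 1 above it and 1 below. The means, 1529 ± 75.3 and 1512 ± 133 CPM (SD, n = 5), gave a ratio of 0.989 with a 95% interval of 0.893 to 1.10 (edgeR adjusted p = 0.935).

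Pc makes oxaloacetate, the substrate of Pck1, from pyruvate (ENSRNOG00000019372, chromosome 1, 219759183 to 219859848, plus strand, 25 exon ranges). Control replicates 2, 3, 4, 5 and 6 had 656, 615, 595, 580 and 574 CPM, and dehydrated replicates 1, 2, 4, 5 and 6 had 626, 622, 556, 588 and 719 CPM. Again 3 dehydrated kidneys lay within the control range, with replicate 6 above and replicate 4 below it. The means were 604 ± 33.0 and 622 ± 61.3 CPM (SD, n = 5), a ratio of 1.03 with a 95% interval of 0.928 to 1.14 (edgeR adjusted p = 0.802). Pc overlaps 1 annotated gene on the opposite strand, and counting used strand.

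Glud1 converts glutamate to 2-oxoglutarate and ammonium (ENSRNOG00000057367, chromosome 16, 10662021 to 10695557, plus strand, 13 exon ranges). Its levels were 884, 924, 974, 861 and 960 CPM in control replicates 2, 3, 4, 5 and 6, and 882, 962, 822, 786 and 1023 CPM in dehydrated replicates 1, 2, 4, 5 and 6. The dehydrated kidneys spread to both sides of the control range, with 2 below, 2 within and 1 above it. The means were 920 ± 48.4 and 895 ± 97.8 CPM (SD, n = 5), a ratio of 0.972 with a 95% interval of 0.869 to 1.09 (edgeR adjusted p = 0.834).

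Ppargc1a encodes the coactivator PGC-1α, which is known to raise Pck1 transcription in fasted liver (ENSRNOG00000004473, chromosome 14, 63095720 to 63187009, plus strand, 13 exon ranges). Control replicates 2, 3, 4, 5 and 6 had 73.3, 74.4, 71.1, 70.4 and 72.8 CPM, and dehydrated replicates 1, 2, 4, 5 and 6 had 80.1, 77.4, 60.9, 68.6 and 66.7 CPM. None of the dehydrated kidneys fell within the control range: 2 lay above it and 3 below. The means were 72.4 ± 1.62 and 70.7 ± 7.90 CPM (SD, n = 5), a ratio of 0.977 with a 95% interval of 0.881 to 1.08 (edgeR adjusted p = 0.852). The coefficient of variation was 2.24% in control kidneys, near the counting error of 2.00% to 2.17% of these libraries, and 11.2% in dehydrated kidneys.

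Of the 4 genes beside Pck1, 0 were called by edgeR at an adjusted p below 0.05, and 0 had an unadjusted p below 0.05 (0.549 to 0.821). DESeq2 and limma voom also called 0 of the 4. Among all tested genes 8.47% were called, 4.7% higher and 3.77% lower. The bounds of the 4 intervals run from a ratio of 0.869 to 1.14, which leaves room for changes of up to about that size and does not show that the levels were equal. The median absolute log2 fold change of all tested genes was 0.099, and the 4 values were -0.016, 0.043, -0.04 and -0.034 for Fbp1, Pc, Glud1 and Ppargc1a. After leaving out both libraries numbered 6 they were -0.073, -0.035, -0.08 and -0.014, with adjusted p from 0.602 to 0.95 (edgeR). Pc thus changed sign and none of the 4 was called.

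**Figure D2:**
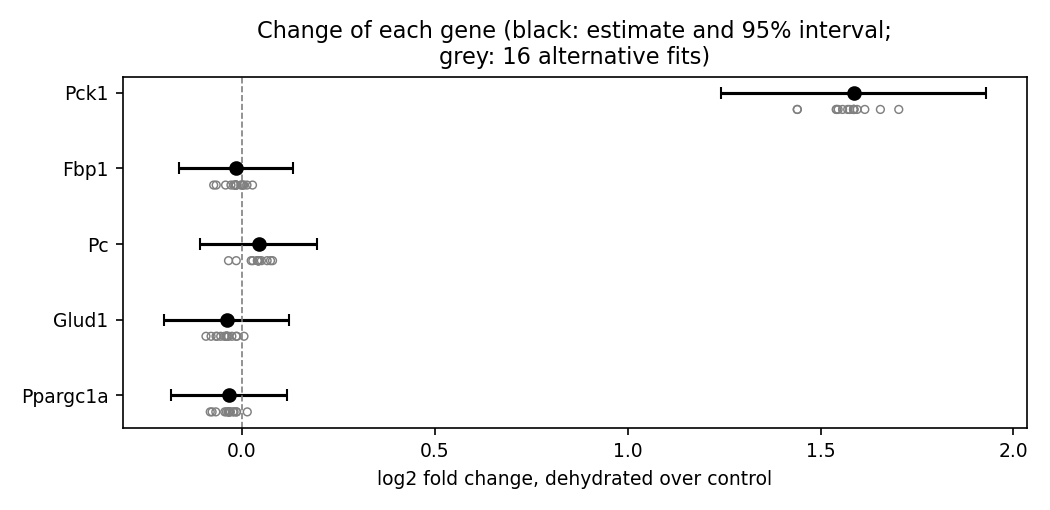
Log2 fold change of each gene, dehydrated over control, with its 95% interval from edgeR (black) and the estimates of 16 alternative fits (grey). The estimate of Pck1 is 1.59, a description since it was chosen for its change, and the intervals of the other 4 genes include 0.

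**Figure D3:**
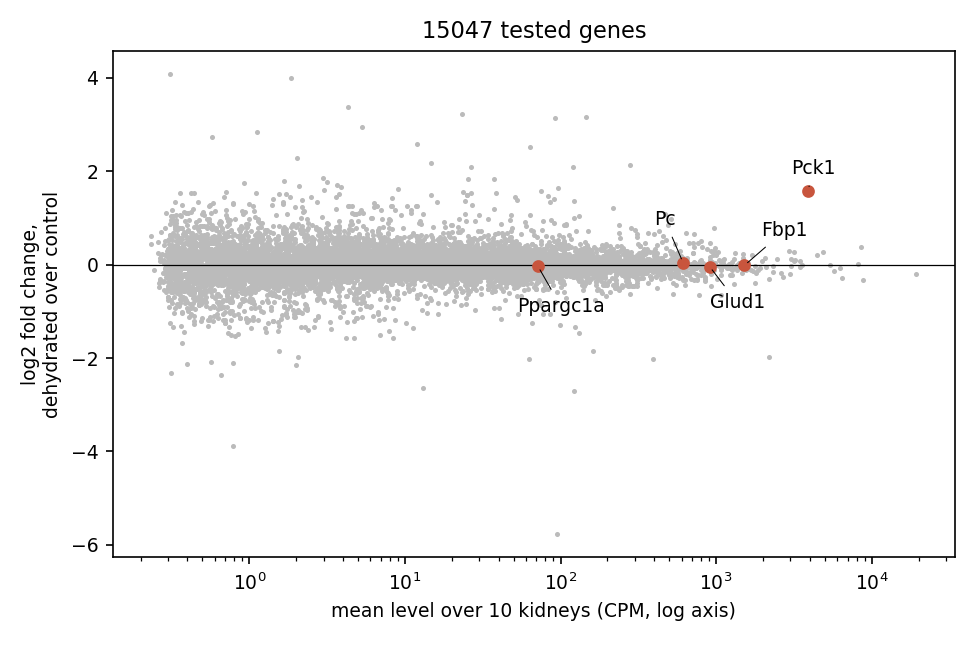
Log2 fold change, dehydrated over control, against the mean CPM over 10 kidneys (log axis) for the 15047 tested genes, with the 5 named genes in red. Pck1, at 1.59, stands above other genes of its level, and the other 4 lie close to 0.

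Levels of different genes were compared per exonic length. In control kidneys Fbp1 was the highest of the 5 at 1054 ± 51.9 CPM per kb, followed by Pck1 at 743 ± 44.9, Glud1 at 321 ± 16.9, Pc at 134 ± 7.35 and Ppargc1a at 26.5 ± 0.592 (SD, n = 5). In dehydrated kidneys Pck1 came first at 2231 ± 627 CPM per kb, with Fbp1 at 1043 ± 92.0, Glud1 at 312 ± 34.1, Pc at 138 ± 13.6 and Ppargc1a at 25.8 ± 2.89 (SD, n = 5). No neighbours in either order had overlapping ranges. Fbp1 thus exceeded Pck1 in 5 of 5 control kidneys, and Pck1 exceeded Fbp1 in 5 of 5 dehydrated kidneys. Among all tested genes ranked by level per length, Pck1 moved from place 89 to place 15, whereas Fbp1 was at 43 and 45 and Glud1 at 306 and 313.

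The proportion of Pck1 to the other enzymes differed accordingly, given here with no test since Pck1 was chosen for its change. Per length, Pck1 stood at 0.707 ± 0.0588 of Fbp1 in control and 2.12 ± 0.467 times Fbp1 in the dehydrated rats (SD, n = 5). Relative to Pc, the enzyme one step before it, Pck1 was at 5.55 ± 0.521 times (control) and 15.9 ± 3.04 times (dehydrated; SD, n = 5). In the 8 libraries not numbered 6, the mean of Pck1 was 742 CPM per kb in control and 2017 in dehydrated kidneys, and the order of the 5 genes was the same in each group.

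**Figure D4:**
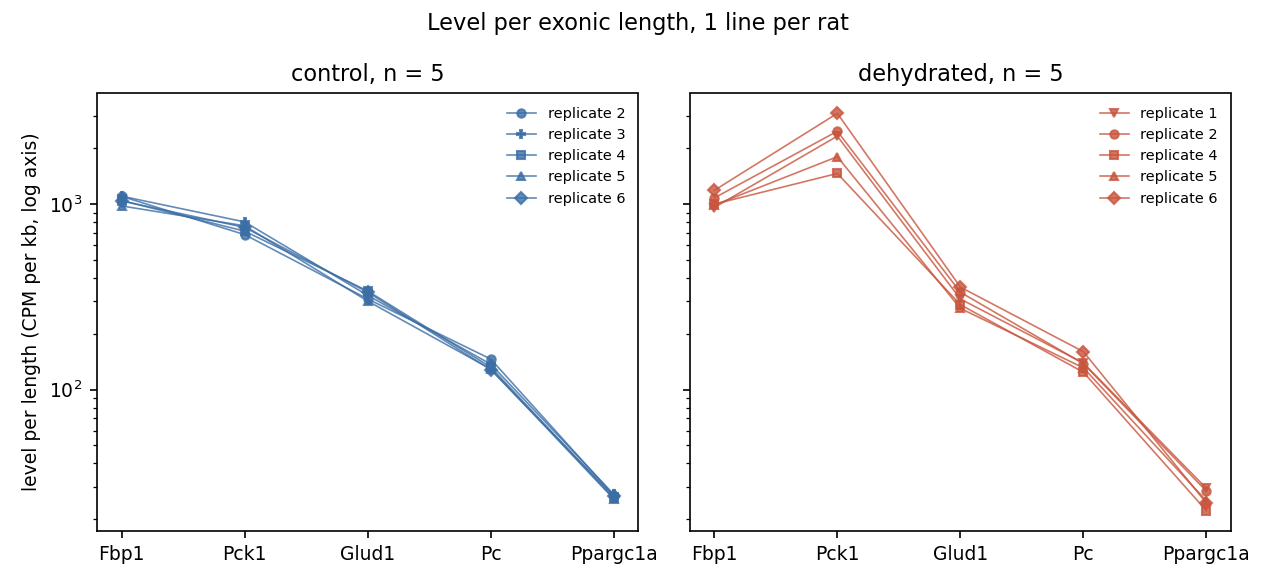
Level per exonic length (CPM per kb, log axis) of the 5 genes in control (left) and dehydrated (right) kidneys, with 1 line per rat. Fbp1 lies above Pck1 in each of 5 control kidneys and below it in each of 5 dehydrated kidneys.

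Values of Pck1 lay farther apart among the dehydrated rats than among the control rats. The SD of log2 CPM was 0.087 in control and 0.418 in dehydrated kidneys. Of the 18 tested genes within 2-fold of the level of Pck1 in dehydrated kidneys, 0 had a larger SD, and their median was 0.097. In control kidneys 61.7% of the 81 genes of like level had a larger SD than Pck1. The counting error of Pck1 was at most 0.418% in any library. Over the libraries not numbered 6 the SDs were 0.101 and 0.349 (n = 4).

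The same rats stood at the ends for several of the 5 genes. Dehydrated replicate 6 was the highest of its group for Pck1, Fbp1, Pc and Glud1, but the second lowest for Ppargc1a. Dehydrated replicate 4 was the lowest for Pck1, Pc and Ppargc1a. In 4 of the 5 genes replicate 2 was at the second place of the dehydrated group, and for Pc it was at the third.

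The genes that lie beside each member were not used to choose it. Of the 10 tested genes nearest to Pck1, 5 on each side, 3 were called by edgeR, 2 higher and 1 lower, against 8.47% of all tested genes. The 2 that rose are the immediate neighbours on either side, and they were weakly expressed. The neighbour before Pck1 was on average at 0.0352% of the CPM of Pck1 in control and 0.0561% in dehydrated kidneys. For the neighbour after Pck1 these shares were 0.0503% and 0.0472%. Whether the counts of these neighbours arise apart from Pck1 transcripts was not tested. Of the other 8, the log2 fold changes ran from -0.58 to 0.147.

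The neighbour before Pck1, ENSRNOG00000028661, lies on the minus strand (chromosome 3, 171145584 to 171166454), 47.5 kb from Pck1. It had 0.422, 0.715, 0.797, 0.862 and 0.652 CPM in control replicates 2, 3, 4, 5 and 6, or 14 to 30 fragments. In dehydrated replicates 1, 2, 4, 5 and 6 it had 3.27, 4.09, 1.75, 2.53 and 5.23 CPM, or 52 to 157 fragments. The groups did not overlap, and the dehydrated rats stood in the same order as for Pck1, from replicate 6 through 2, 1 and 5 down to 4. It rose by 2.28 on the log2 scale (SE 0.29; by edgeR, adjusted p = 0.000434), and without both libraries numbered 6 it was 2.05 (adjusted p = 0.00325).

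The neighbour after Pck1 lies on the plus strand at 171242108 to 171243708, 22.2 kb away. It had 0.753, 1.17, 0.883, 0.948 and 1.17 CPM in the control rats and 3.95, 2.94, 1.75, 2.59 and 2.07 CPM in the dehydrated rats, in the same order of replicates. The groups did not overlap, and the rise was 1.44 on the log2 scale (SE 0.23; by edgeR, adjusted p = 0.0017). Here the order of the dehydrated rats was another: replicate 1 was the highest, and replicate 6, the highest for Pck1, was the second lowest. This contrast with Pck1 rested largely on the libraries numbered 6. Pearson's r of log2 CPM with Pck1, over the deviations from the group means, was 0.366 with all libraries and 0.871 without those numbered 6. With both libraries numbered 6 left out, the log2 fold change of this neighbour was 1.58 (adjusted p = 0.00544 by edgeR). The gene that fell lies on the minus strand at 171294856 to 171342646, with 43.3 ± 5.06 CPM in control and 29.0 ± 2.81 CPM in dehydrated rats (SD, n = 5; log2 fold change -0.58, adjusted p = 0.00114 by edgeR).

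Around the other members the called genes were 1 of 6 beside Fbp1 (it fell, at -0.868 on the log2 scale, adjusted p = 0.00143 by edgeR), 0 of 10 beside Pc, 0 of 10 beside Glud1 and 1 of 10 beside Ppargc1a (it fell, -0.364, adjusted p = 0.0293). In all, 5 of the 46 neighbours were called, 2 of them beside members other than Pck1, and DESeq2 called 5 there. Beside the 8.47% of all tested genes, nothing particular to the neighbours is read from these counts. Over all 46 neighbours the median log2 fold change was 0.016, and that of all tested genes was -0.005. Beside Pc, 2 of the 10 had an unadjusted p below 0.05 by edgeR, and DESeq2 and limma voom called 0. Beside Glud1 1 of the 10 had such a p, DESeq2 called 1 and limma voom called 0.

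**Figure D5:**
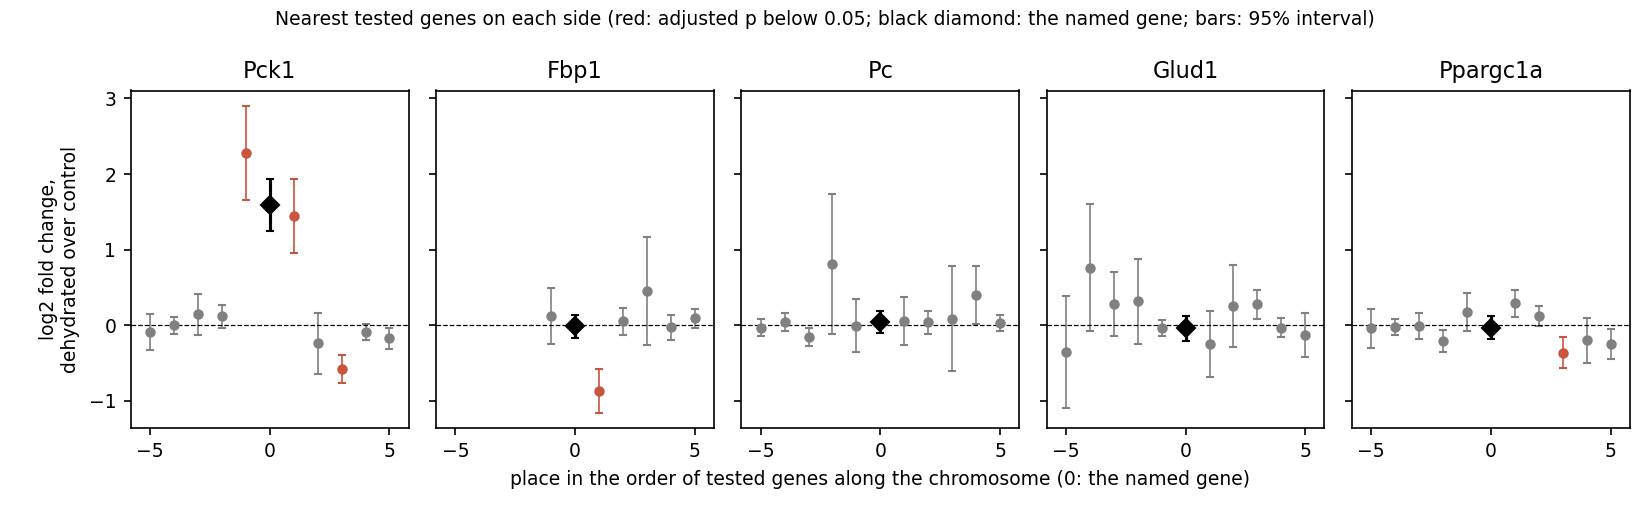
Log2 fold change, dehydrated over control, with 95% intervals for the nearest tested genes on each side of each member, in chromosome order (position 0, black diamond, is the member; red marks an edgeR adjusted p below 0.05). The genes directly before and after Pck1 are at 2.28 and 1.44, and those next to the other 4 members lie lower. The interval of Pck1 is a description, since it was chosen for its change.

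Likeness to Pck1 was measured as Pearson's r of log2 CPM over the 10 libraries, for the 12549 tested genes whose mean reached 2 CPM. The values are a description: the libraries fall into 2 groups, so r mostly carries the group difference, and all genes of a library share its scaling. Of these genes, 141 had an r above 0.9 and 67 an r below -0.9. The r over the deviations from the group means, given beside it, mostly carries the dehydrated rats. The SD of log2 CPM of Pck1 was 0.418 there and 0.087 in control kidneys. ENSRNOG00000028661, the gene directly before Pck1, was the most like it (r = 0.985), and its r over the deviations from the group means was 0.895. With a mean of 2.03 CPM over the 10 libraries, this gene barely reached the limit of 2 CPM. It did so only through the dehydrated group (3.37 ± 1.35 CPM, against 0.689 ± 0.17 in control; SD, n = 5), where it was high. The next was ENSRNOG00000020308 (chromosome 1, 87009730 to 87016005, plus strand), with r = 0.982 and 0.893 over the deviations. Its mean was 168 ± 11.6 CPM in control and 304 ± 59.3 CPM in dehydrated rats (SD, n = 5), and its dehydrated values were 284, 345, 241, 264 and 384 CPM in replicates 1, 2, 4, 5 and 6, the order of Pck1 once more. Without both libraries numbered 6 these genes were at places 10 and 6 of the 12549, with r = 0.978 and 0.979 over 8 libraries. The 12549 genes were those picked over all 10 libraries. Over the 8, ENSRNOG00000028661 had 0.699 CPM in control and 2.91 CPM in dehydrated rats (n = 4), a mean below the limit of 2 CPM.

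The most unlike genes both lie on chromosome 7. ENSRNOG00000018655 (122157201 to 122192328, plus strand) had r = -0.979 and went from 48.4 ± 1.20 to 41.0 ± 1.5 CPM (SD, n = 5). ENSRNOG00000004314 (66843865 to 67116980, minus strand) had r = -0.977 and went from 69.4 ± 1.06 to 52.3 ± 3.68 CPM (SD, n = 5). Over the deviations from the group means their r was -0.805 and -0.784. Without both libraries numbered 6 these were -0.694 and -0.556, r over the 8 libraries was -0.972 and -0.968, and the genes were at places 12543 and 12537 rather than at the end of the order. The other members were not among the genes most like Pck1: r was 0.431 for Pc, 0.095 for Fbp1, 0.064 for Glud1 and -0.026 for Ppargc1a. Over the deviations from the group means, where the group difference is taken out, r was higher, at 0.788 for Glud1, 0.768 for Pc, 0.585 for Fbp1 and 0.483 for Ppargc1a. By that measure Glud1 was at place 109 and Pc at place 139 of the 12549 genes. Without both libraries numbered 6 the values over the deviations were 0.644 for Glud1, 0.588 for Pc, 0.17 for Fbp1 and 0.929 for Ppargc1a, so the order among the 4 rested on those libraries.

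The authors' deposited table gives a log2 fold change of 1.586 for Pck1 (SE 0.15), and of -0.015, 0.044, -0.04 and -0.033 for Fbp1, Pc, Glud1 and Ppargc1a. In the authors' deposited table none of these 4 had an adjusted p below 0.823. A DESeq2 fit with the titled groups gave the log2 fold changes of all 15284 genes of the authors' deposited table within 1e-05, so that comparison used the groups as titled.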

How the data were processed

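Whole-kidney RNA of 5 control and 5 dehydrated rats was compared. The authors deposited unnormalised fragment counts per Ensembl gene, made with featureCounts 1.6.2 (paired-end, strand setting 2, Ensembl release 103 of Rnor 6.0) on trimmed, Rsubread-aligned reads, per the file headers, with each gene's exonic length. They also deposited a DESeq2 table with a mean normalised signal, log2 fold changes with standard errors and p-values adjusted over genes, per the file headers and the submitters' processing notes; its 10 columns of per-library values were not used.

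Of 21311 genes with a count, filterByExpr (minimum count 10, total 15) kept 15047. These were tested with edgeR 4.0.16 in R 4.3.3 (glmQLFit and glmQLFTest, TMM, no covariate), with Benjamini-Hochberg adjusted p below 0.05 called. The SE is the absolute log2 fold change divided by the square root of F, and 95% intervals use the t distribution with the fit's degrees of freedom. Log2 CPM used a prior count of 2. Counting error is the square root of the count over the count, and covers counting only. Alternatives used DESeq2 1.42.0, limma 3.58.1, other scaling, no filter, a replicate block and left-out libraries. The test was checked on simulated data. Replicates of a group differed beyond counting noise (chi-square per degree of freedom 13.3 to 32). Precision is set by 5 rats per group.

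The members, lists and tests were chosen with earlier results of these data known. Genes were named by the rule: the members, and the 2 most like and the 2 most unlike Pck1 whose mean reached 2 CPM. The 3 called neighbours of Pck1 were picked with their values in view. None of the 57 planned pathway genes or 36 markers could be paired with identifiers by the GRCr8 table, apart from the 5 given by the rule. Promoters are RefSeq's (GRCr8), matched by symbol for 4 of the 5 genes.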

Additional observations from a re-analysis of the deposited data

How the results depend on the processing

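Pck1 was higher in dehydrated rats in all 16 alternative fits, with log2 fold changes of 1.44 to 1.70 over the fits that leave out 1 library (1.44 without dehydrated replicate 6, 1.70 without dehydrated replicate 4) and 1.44 to 1.59 over the others. None of the other 4 genes was called in any of the 16, with adjusted p of 0.506 or more, but the sign of these small values was not fixed. Leaving out 1 library gave -0.067 to 0.013 for Fbp1, -0.015 to 0.079 for Pc, -0.093 to 0.0052 for Glud1 and -0.082 to 0.014 for Ppargc1a. Fbp1 was at 0.027 with the replicate block, and Pc at -0.035 without both libraries numbered 6.

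A replicate block left 763 calls (426 higher, 337 lower) in place of 1275 (707 and 568), with Pck1 at 1.54 on the log2 scale. The numbers are not said to pair rats: the deviations of libraries with the same number correlated at r of -0.0545 to 0.139, 1 of 4 pairs above 0.1, and in 1 of 4 pairs each library was closest to its own partner. The block ended the call of ENSRNOG00000018655 (adjusted p = 0.0749). Leaving out both libraries numbered 6 left 461 genes called higher. Leaving out 1 library gave 879 to 1382 called genes, 485 to 763 higher and 378 to 619 lower, the 378 without control replicate 4. The 2 genes beside Pck1 that rose were called in all 16 fits, at 2.05 to 2.44 and 1.25 to 1.58. Of the 46 neighbours, 5 were called, 4 to 6 with 1 library left out and 8 by DESeq2. These neighbour counts were added after the data were seen. Levels per length moved by less than 1 SD with medians, DESeq2 size factors or without the libraries numbered 6.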

Other observations

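Wider spread in dehydrated kidneys was not limited to Pck1. The SD of log2 CPM over 5 rats was 0.072 in control and 0.124 in dehydrated kidneys for Fbp1, 0.078 and 0.139 for Pc, 0.076 and 0.157 for Glud1 and 0.032 and 0.162 for Ppargc1a. All 5 genes were thus wider in the dehydrated group, while among all tested genes 49.5% were, with median SDs of 0.137 and 0.136. Without both libraries numbered 6, a comparison added after the data were seen, 4 of the 5 were wider (54.1% of tested genes), the exception being Fbp1 at 0.082 and 0.073. Ppargc1a was among the least variable genes of its level in control kidneys. There 97.2% of 4034 genes within 2-fold of it had a larger SD, against 14.6% of 4114 in dehydrated kidneys. By the same measure, 72.2% of genes had a larger SD than Fbp1 in control and 45.2% in dehydrated kidneys. The shares were 66.5% and 32.9% for Pc, and 72% and 24.6% for Glud1. In control kidneys each of the 5 genes had a smaller SD than the median of genes of like level, and in dehydrated kidneys a larger one. Those medians in dehydrated kidneys were 0.115 for Fbp1, 0.109 for Pc, 0.111 for Glud1 and 0.095 for Ppargc1a. The spread was not tested.

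In none of the 10 sets of 5 values (5 genes in 2 groups) was a single kidney set apart from the rest by a gap above 0.71 of the range.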
